A study of Mus musculus with 8 samples.

Results

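Endothelial cells line blood vessels, and in skeletal muscle they form the dense capillary bed that runs along the fibres. The 9 genes described here are markers of these cells: *Pecam1*, *Cdh5*, *Kdr*, *Tek*, *Tie1*, *Vwf*, *Eng*, *Emcn* and *Esam*. They were taken by symbol from a table of read counts for 12551 genes and were described across the RNA-sequencing libraries of tibialis anterior (TA) muscle, a fast-twitch muscle of the lower leg. All 9 were found, and all 9 passed the filter on low counts. The libraries came from 4 wild-type (WT) and 4 Klotho-deficient (KL-/-) mice, all male and 7 weeks of age, bred from heterozygous parents on a mixed background. KL-/- mice carry null alleles of *Kl* in the whole body, so vessels, muscle and every other organ lacked the gene throughout life. *Kl* itself was not analysed here, so the genotypes rest on the labels.

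Vascular endothelial growth factor (VEGF) acts on endothelial cells mainly through the receptor encoded by *Kdr*, with neuropilins as co-receptors. The Tie receptors, encoded by *Tek* and *Tie1*, keep mature vessels stable, and the *Tek* receptor answers to angiopoietins. *Eng* encodes endoglin, a co-receptor for ligands of the transforming growth factor β family. *Cdh5*, *Pecam1* and *Esam* encode adhesion proteins of the junctions between neighbouring endothelial cells, *Emcn* a sialomucin of the cell surface, and *Vwf* the clotting protein that endothelial cells store and release.

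Counts on genes summed to 20860262 to 26501093 in WT and to 22061526 to 29273758 in KL-/- libraries (two-sided exact permutation test of the totals, p = 0.371). The label of KL-/- replicate 3 gives a batch date of its own. As it is a single library, mouse and batch cannot be told apart. Each library was treated as a separate mouse, as the titles number them. Levels are given as CPM (counts scaled to a common library size), with TMM factors. The 9 genes received between 296 and 6010 counts per library. In whole muscle, fewer endothelial cells and less RNA per endothelial cell cannot be told apart.

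*Kdr* fell in KL-/- muscle, and none of the other 8 endothelial markers passed the test. The receptor's level was lower in each KL-/- library than in any WT library. The markers of endothelial junctions and surface had KL-/- means between 21.5% below and 1.49% below WT, and *Eng* had a higher KL-/- mean that rested on 1 library. Across all genes, 14.0% passed a false discovery rate (FDR) of 0.05 in either direction, 6.67% as lower and 7.35% as higher in KL-/- muscle. Of the 9 markers, 1 passed as lower and 0 as higher. When a change of 0.5 or more on the log2 scale was also required, 3.98% of all genes were lower, and *Kdr* was again the only marker. Of the 9 log2 fold changes, 8 were below 0, as were 6573 of the 12551 over all genes. The median of the 9 was -0.22, beside -0.02 over all genes.

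**Figure D1:**
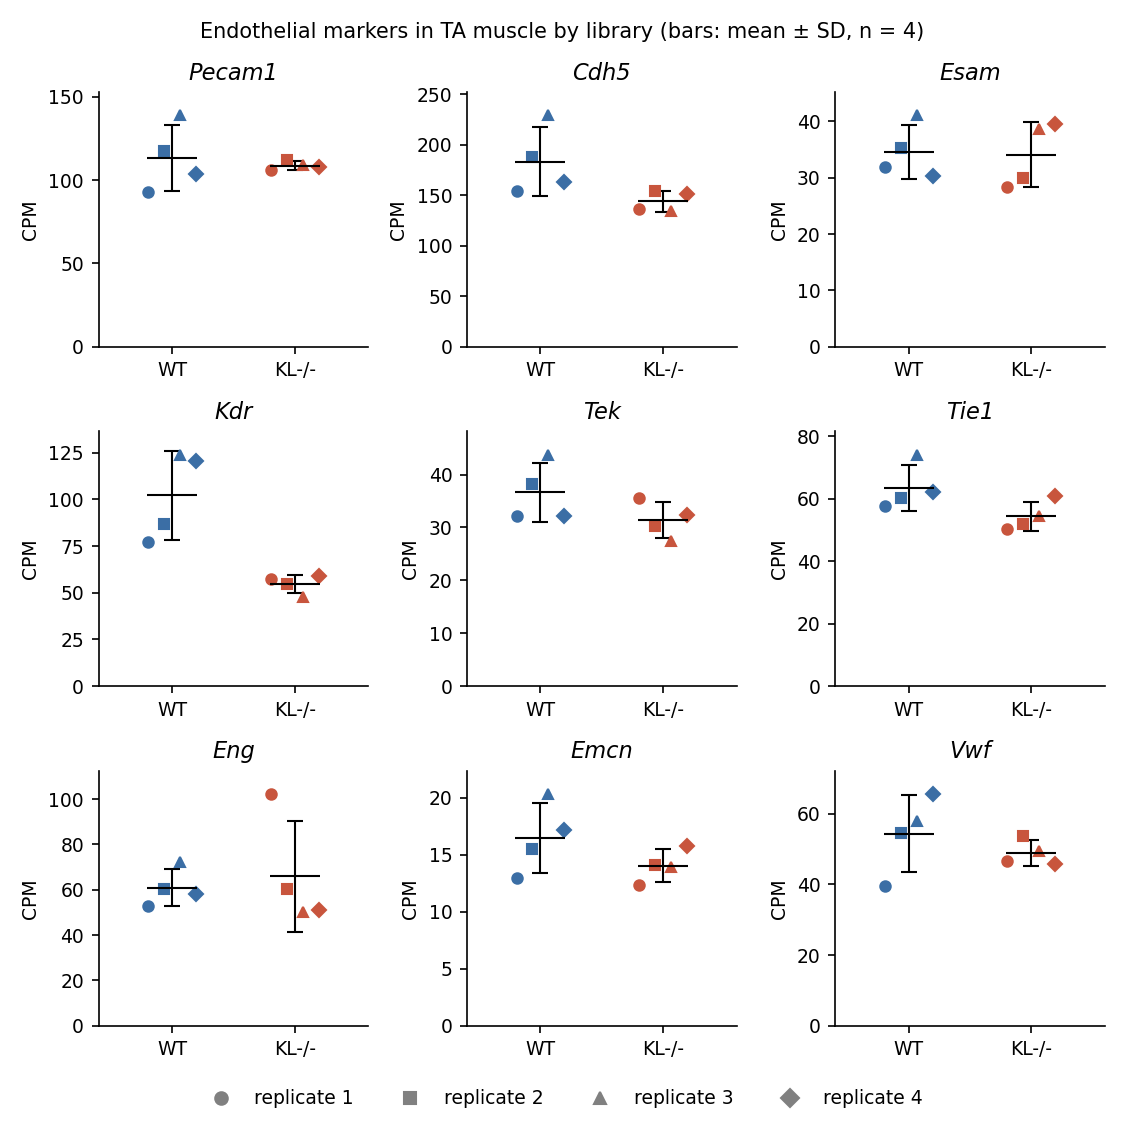
CPM of each endothelial marker (y axis, from 0) in the 4 WT and 4 KL-/- libraries, with bars for the mean and SD and a symbol for each replicate number. *Kdr* spanned 77.0 to 124 in WT libraries and 48.0 to 59.1 in KL-/- libraries, without overlap. The other 8 overlapped.

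*Kdr*, on chr5:75933270-75978428 (mm10, reverse strand), was measured at 77.0, 86.9, 124 and 120 CPM in WT replicates 1 to 4. In KL-/- replicates 1 to 4 it was at 57.4, 54.9, 48.0 and 59.1 CPM. The highest KL-/- library lay below the lowest WT library, a pattern that 9.47% of all genes showed, while 10.2% showed the opposite one. The mean decreased from 102 ± 23.6 to 54.8 ± 4.90 CPM (SD, n = 4 each). The log2 fold change was -0.90 with an SE of 0.152 (edgeR quasi-likelihood test, FDR = 0.00781), a KL-/- level 0.537 times that of WT with a 95% interval of 0.424 to 0.680. The call held under all 17 alternatives examined, with log2 fold changes between -1.02 and -0.79. The alternative without a filter on low counts only repeated the main fit, as the default filter removed no gene. It held when KL-/- replicate 3, whose batch date differs, was left out (log2 fold change -0.84, FDR = 0.0250).

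**Figure D2:**
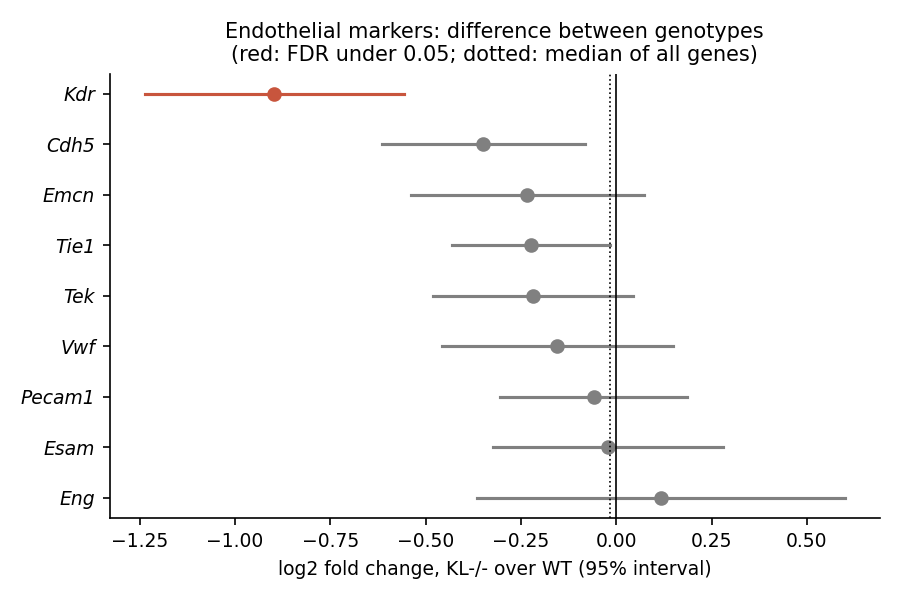
Log2 fold change of each marker, KL-/- over WT, with its 95% interval (x axis). *Kdr* passed an FDR of 0.05 (red), and the dotted line marks the median of all genes, -0.02. The intervals of *Cdh5* and *Tie1* also lay below 0, but neither passed after adjustment over all genes.

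The Tie receptors had lower means in KL-/- muscle, by amounts close to the spread between mice. *Tek*, on chr4:94739289-94874976, was at 32.3, 38.3, 43.8 and 32.2 CPM in the WT libraries and at 35.6, 30.3, 27.5 and 32.4 CPM in the KL-/- libraries. The groups overlapped, and the log2 fold change of -0.22 (SE 0.117) did not pass (FDR = 0.225). *Tie1*, an orphan relative of *Tek* that pairs with it in the membrane, lies on chr4:118471191-118489849. It was at 57.6, 60.3, 74.2 and 62.1 CPM in WT and at 50.2, 52.1, 54.6 and 60.8 CPM in KL-/- libraries. One KL-/- library reached into the WT range, and the log2 fold change of -0.22 (SE 0.0922) had an FDR of 0.129. The ratio of *Tek* to *Tie1* within a library does not depend on the scaling. Its log2 value was -0.80 ± 0.123 in WT libraries and -0.79 ± 0.217 in KL-/- libraries (SD, n = 4 each; two-sided exact permutation test over 70 relabelings, p = 0.943; adjusted over the 4 ratios examined, 0.943).

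Promoter sequence is shown for the 3 receptor tyrosine kinases, since *Kdr* passed the test and *Tek* and *Tie1* did not. The windows hold the 250 bases before the RefSeq start (GRCm38.p6), 5′ to 3′ on the gene's own strand. Of the 9 markers, 5 matched the promoter table, and *Pecam1*, *Cdh5*, *Esam* and *Vwf* did not. The windows lie at chr5:75978456-75978705 for *Kdr* (reverse strand), chr4:94739039-94739288 for *Tek* (forward) and chr4:118489850-118490099 for *Tie1* (reverse). Capitals mark matches to words searched on both strands. For the ETS factors, which are central to endothelial genes, the letters CAGGAAG were searched for first, and then their close variant, spelled CCGGAAG. The word used for SOX factors was ACAAAG. The GATA word was spelled as AGATAA in this search. For the TATA box the letters were TATAAA, read on either strand. The GC box, bound by Sp factors, was spelled as GGGCGG.
Kdr: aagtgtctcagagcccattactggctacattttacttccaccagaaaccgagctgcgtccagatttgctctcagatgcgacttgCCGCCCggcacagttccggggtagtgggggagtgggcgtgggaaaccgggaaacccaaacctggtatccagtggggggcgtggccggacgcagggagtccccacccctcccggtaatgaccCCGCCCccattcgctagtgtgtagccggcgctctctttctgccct
Tek: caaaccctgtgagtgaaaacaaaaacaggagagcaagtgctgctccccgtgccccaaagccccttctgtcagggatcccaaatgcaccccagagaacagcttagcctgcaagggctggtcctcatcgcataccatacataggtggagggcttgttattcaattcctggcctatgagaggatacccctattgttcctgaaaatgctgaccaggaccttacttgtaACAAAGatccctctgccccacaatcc
Tie1: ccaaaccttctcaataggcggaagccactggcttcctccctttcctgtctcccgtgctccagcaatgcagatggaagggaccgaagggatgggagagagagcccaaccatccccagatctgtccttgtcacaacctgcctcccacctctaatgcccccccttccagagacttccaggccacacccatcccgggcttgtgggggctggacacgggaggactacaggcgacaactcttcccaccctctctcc

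The *Kdr* window held 2 GC boxes on the opposite strand, whose first bases lay 166 and 45 bases before the start. The *Tek* window held 1 SOX match, and the *Tie1* window held none of the 6 words. GC boxes occurred in 32.7% of 32851 promoters of the same length and the SOX word in 16.5%. A match is a description of the letters and not of a bound site. Of the windows not shown, *Eng* held 1 SOX match and *Emcn* 1 match to CAGGAAG, a word found in 10.8% of promoters.

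Among the junction proteins, *Cdh5* encodes VE-cadherin, the adherens junction protein that is largely restricted to endothelium. It was at 154, 187, 229 and 163 CPM in WT and at 136, 154, 134 and 151 CPM in KL-/- libraries. Only KL-/- replicate 2 reached the lowest WT library. The mean was 183 ± 33.7 CPM in WT and 144 ± 10.4 CPM in KL-/- libraries, a log2 fold change of -0.35 (SE 0.119) with an unadjusted p of 0.0157 and an FDR of 0.0787 (edgeR quasi-likelihood test). Its call was gained when raw library totals set the scale (FDR = 0.0279) and with DESeq2 (FDR = 0.0453). The gene overlaps the antisense transcript *Gm29682* on the opposite strand, and the strand setting of the counting was not given in the sources used here.

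*Pecam1*, which encodes the adhesion protein CD31, showed nearly level means. It was at 93.0, 118, 139 and 103 CPM in WT and at 106, 112, 109 and 108 CPM in KL-/- libraries. The KL-/- libraries fell inside the WT range and spread by 2.64 CPM (SD), against 19.9 CPM in WT. Its log2 fold change of -0.06 (SE 0.109, FDR = 0.744) had a 95% interval from -0.30 to 0.19, and turned to 0.06 without WT replicate 3. *Esam*, an adhesion molecule of endothelial tight junctions, was at 31.8, 35.2, 41.1 and 30.3 CPM in WT and at 28.3, 29.9, 38.6 and 39.5 CPM in KL-/- libraries. The genotypes overlapped over most of their range, with a log2 fold change of -0.02 (95% interval -0.32 to 0.28, FDR = 0.927). That difference turned positive without WT replicate 3, KL-/- replicate 1 or KL-/- replicate 2, at 0.07, 0.07 and 0.04.

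*Eng* was the marker with a KL-/- mean above WT, and the difference came from 1 library. In WT it was at 53.0, 60.1, 72.2 and 58.2 CPM, and in KL-/- at 102, 60.4, 50.2 and 51.2 CPM. KL-/- replicate 1 stood above all other libraries, while replicates 3 and 4 stood below all WT libraries. The log2 fold change was 0.12 (SE 0.216, FDR = 0.742) with that library and -0.17 without it (FDR = 0.371). *Fpgs*, a gene on the other strand that overlaps the end of *Eng*, was at 6.31 CPM in KL-/- replicate 1, and at 5.93 to 8.21 CPM in the other 3 KL-/- libraries. The gene also holds a microRNA, *Mir1954*, and 2 further small RNA genes on its own strand.

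*Emcn* and *Vwf* had lower KL-/- means that did not pass. *Emcn*, a marker of capillary and venous endothelium, was at 13.0, 15.5, 20.3 and 17.2 CPM in WT and at 12.3, 14.1, 14.0 and 15.8 CPM in KL-/- libraries. The genotypes overlapped, and the log2 fold change was -0.23 (SE 0.136, FDR = 0.264). *Vwf* was at 39.6, 54.4, 57.9 and 65.6 CPM in WT and at 46.6, 53.7, 49.5 and 45.7 CPM in KL-/- libraries. All 4 KL-/- libraries lay inside the WT range, and the log2 fold change was -0.15 (SE 0.135, FDR = 0.457). It was -0.28 without WT replicate 1 and -0.05 without WT replicate 4. Relative to *Pecam1* within a library, the log2 ratio differed between genotypes by -0.18 for *Emcn* (exact permutation test, p = 0.171, adjusted 0.343) and by -0.09 for *Vwf* (p = 0.771, adjusted 0.943).

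The fourth ratio, *Kdr* over *Cdh5*, compares the VEGF receptor with the junction protein inside each library. Its log2 value was -0.998, -1.11, -0.887 and -0.435 in WT and -1.25, -1.49, -1.48 and -1.35 in KL-/- muscle. The genotypes did not overlap, with means of -0.86 ± 0.295 and -1.39 ± 0.116 (SD, n = 4 each). The difference of -0.54 had p = 0.0286, the smallest value that a two-sided exact permutation test over 70 relabelings can give. Adjusted over the 4 ratios it was 0.114, the lowest value that a single ratio at that floor can reach. It could not have passed unless other ratios had also been at or near the floor, so the adjusted value does not decide the question.

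Levels per length of transcript, as RPKM (CPM per kilobase), placed *Cdh5* first at a mean of 41.0 over the 8 libraries, followed by *Pecam1* at 33.3. *Esam* at 18.5, *Eng* at 17.8, *Tie1* at 15.2 and *Kdr* at 14.4 formed a middle group. *Emcn* at 10.5, *Tek* at 7.24 and *Vwf* at 5.84 closed the order. *Cdh5* exceeded *Pecam1*, and *Pecam1* exceeded *Esam*, in 8 of 8 libraries. Neighbours of the middle group changed places from library to library, since *Esam* exceeded *Eng* in 6, *Eng* exceeded *Tie1* in 5 and *Tie1* exceeded *Kdr* in 5 of 8. By group mean, *Kdr* had rank 3 in WT (18.7 ± 4.33 RPKM) and rank 6 in KL-/- muscle (10.1 ± 0.899 RPKM), and the ranks of *Cdh5*, *Pecam1*, *Esam*, *Emcn*, *Tek* and *Vwf* were the same in both.

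WT replicate 3 stood apart from the other WT mice. It held the highest level of all 8 libraries for 7 of the 9 markers, the exceptions being *Eng* and *Vwf*. The summed level of the 9 was 551, 656, 802 and 652 CPM in WT and 575, 562, 525 and 563 CPM in KL-/- libraries. WT replicate 1 lay between the KL-/- libraries, and the others lay above them. Without TMM factors the sums did not overlap, at 565 to 845 in WT and 502 to 563 in KL-/- libraries. The SD was larger in WT than in KL-/- muscle for 7 of the 9, *Esam* and *Eng* excepted. Without WT replicate 3, the *Kdr* log2 fold change was -0.79 (FDR = 0.0236), those of *Cdh5*, *Tie1*, *Tek* and *Emcn* were -0.22, -0.14, -0.12 and -0.12, and the median of the 9 was -0.12.

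**Figure D3:**
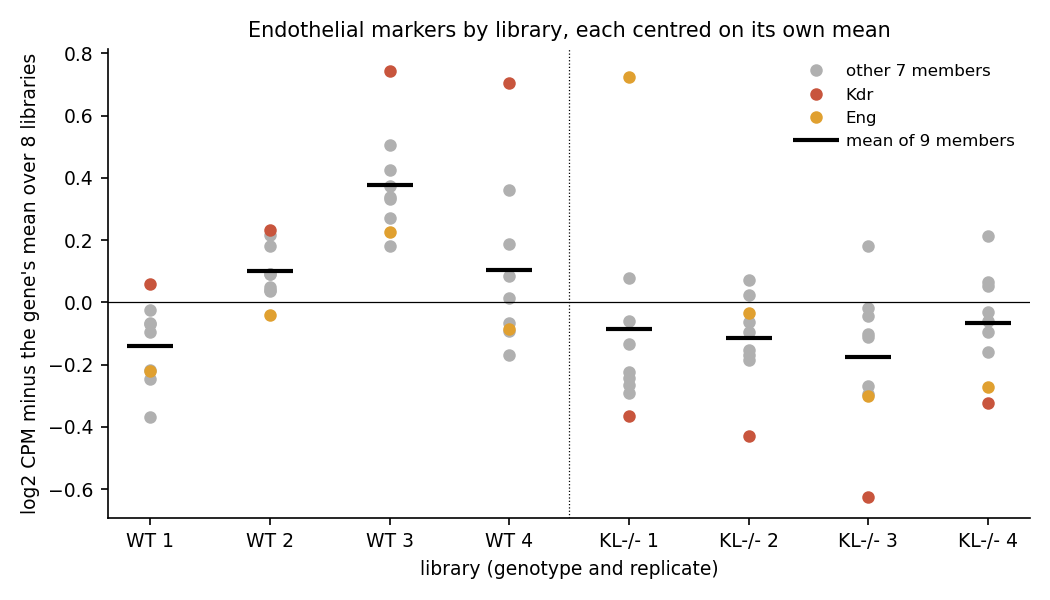
Log2 CPM of the 9 markers minus each gene's own mean over the 8 libraries (y axis), by library (x axis), with black bars for the mean of the 9. The mean was highest in WT replicate 3. *Kdr* (red) lay above it in each WT library and below it in each KL-/- library, and *Eng* (yellow) stood apart in KL-/- replicate 1.

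Likeness to the common profile was measured as the root-mean-square difference, over the 8 libraries, between a gene's centred log2 CPM and the mean of the 9 markers. For a marker, the mean was that of the other 8, so that it was not set against itself. *Tie1* was the closest marker at 0.0973, and *Kdr* at 0.396, *Eng* at 0.358 and *Esam* at 0.230 were the farthest. Genes outside the list were set against the mean of all 9, so the 2 sets of values have different references. Of 11036 other genes whose mean log2 CPM was 1 or more, the 5 closest were *Myd88* (0.0538), an adaptor of Toll-like receptors, *Gnai2* (0.0581), a G protein subunit, *Eif2ak3* (0.0759), a kinase of the unfolded protein response, *Wwtr1* (0.0796), the transcriptional co-activator TAZ, and *Rnf115* (0.0804), a ubiquitin ligase. With 8 points and this many candidates, close profiles are a description only.

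The partners of the marker receptors were taken from a list of 21 ligands, co-receptors and regulators, 17 of which were measured. Of these, 3 were lower in KL-/- muscle and 0 were higher, beside 6.67% and 7.35% of all genes. The median log2 fold change of the list was -0.20. *Nrp1*, the neuropilin that binds VEGF together with the *Kdr* receptor, was at 91.2, 110, 130 and 114 CPM in WT and at 71.7, 76.6, 75.2 and 85.1 CPM in KL-/- libraries. The genotypes did not overlap, and the log2 fold change was -0.53 (SE 0.103, FDR = 0.0129, edgeR quasi-likelihood test). *Nrp1* passed under all 17 alternatives, with FDR values up to 0.0393 when 1 library was left out.

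*Nrp2*, the second neuropilin, spanned 20.7 to 27.9 CPM in the WT libraries and 15.4 to 22.1 CPM in the KL-/- libraries. A log2 fold change of -0.56 passed (FDR = 0.0283), and the call was lost without any single library other than WT replicate 1 and KL-/- replicate 2, with FDR values up to 0.0817. *Angpt1*, the activating ligand of the *Tek* receptor, was at 25.2 to 29.2 CPM in WT and at 12.2, 25.4, 14.1 and 12.4 CPM in KL-/- libraries. KL-/- replicate 2 lay inside the WT range and the other 3 below it, with a log2 fold change of -0.74 (FDR = 0.0485). The call was lost without any library other than KL-/- replicate 2, with FDR values up to 0.126, and without that library the log2 fold change was -1.04. *Angpt1* falls outside the rule for named genes and was chosen after its values were seen, as were *Vegfa*, *Vegfb*, *Flt1*, *Fpgs*, *Cpe*, *Lpl*, *Aqp1* and *Cd36*.

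*Vegfa* and *Vegfb*, the more abundant VEGF ligands in these libraries, did not pass the test. *Vegfa* was at 307, 289, 336 and 411 CPM in WT and at 367, 271, 323 and 312 CPM in KL-/- libraries, with a log2 fold change of -0.08 (95% interval -0.35 to 0.20, FDR = 0.691) that turned to 0.03 without WT replicate 4. *Vegfb* averaged 128 ± 18.3 CPM in WT and 143 ± 24.4 CPM in KL-/- libraries (log2 fold change 0.16, FDR = 0.464), a difference of 0.28 without KL-/- replicate 2, 0.09 without WT replicate 3 and 0.04 under raw library totals. *Vegfc*, a lymphangiogenic ligand counted here with the arterial genes, was at 2.78 to 3.74 CPM in WT and at 1.66 to 2.24 CPM in KL-/- libraries, without overlap. Its log2 fold change was -0.75 (FDR = 0.0164), and the call was lost without KL-/- replicate 4 (FDR = 0.0515).

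*Flt1*, the other main VEGF receptor of blood vessel endothelium, was at 84.9, 77.2, 81.8 and 88.3 CPM in WT and at 93.6, 75.1, 111 and 90.2 CPM in KL-/- libraries. Its log2 fold change of 0.15 did not pass (95% interval -0.08 to 0.39, FDR = 0.339). It was 0.25 without KL-/- replicate 2 (FDR = 0.0592), 0.06 without KL-/- replicate 3, and 0.04 when raw library totals set the scale. The log2 ratio of *Kdr* to *Flt1* was chosen after the values were seen, so it is a description only and no further support for the *Kdr* result. This ratio averaged 0.27 ± 0.326 in WT libraries and -0.74 ± 0.326 in KL-/- libraries (SD, n = 4 each). The WT libraries lay between -0.14 and 0.60 and the KL-/- libraries between -1.21 and -0.45, without overlap.

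**Figure D4:**
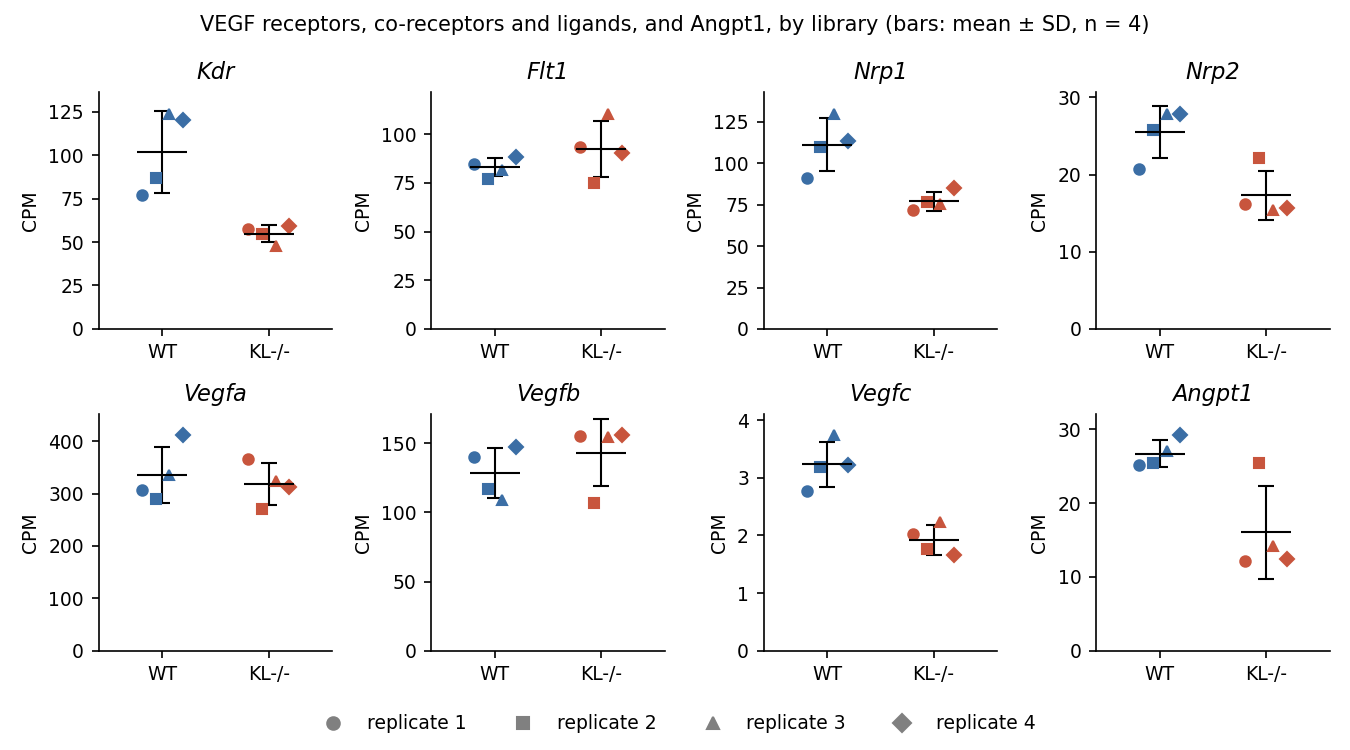
CPM (y axis, from 0) of *Kdr*, *Flt1*, the neuropilins, 3 VEGF ligands and *Angpt1* in the 4 WT and 4 KL-/- libraries, with bars for the mean and SD. *Kdr*, *Nrp1* and *Vegfc* did not overlap between genotypes. *Flt1*, *Vegfa* and *Vegfb* overlapped, and for *Nrp2* and *Angpt1* KL-/- replicate 2 reached the WT range.

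A further 30 pan-endothelial genes were listed, of which 29 were measured. They had a median log2 fold change of -0.14, with 22 of 29 below 0, and 1 was higher and 2 were lower at an FDR under 0.05. Over all genes, 6573 of 12551 were below 0, and 7.35% passed as higher and 6.67% as lower, so calls in this list were about as frequent as elsewhere. *Sox17*, a SOX factor of arterial specification, rose from 9.59 ± 1.89 to 14.4 ± 2.06 CPM (log2 fold change 0.59, FDR = 0.0352). *Sox18*, its close relative, fell from 19.6 ± 2.20 to 11.8 ± 4.23 CPM (log2 fold change -0.73, FDR = 0.0496), with KL-/- replicate 1 at 17.8 CPM inside the WT range. *Palmd*, which encodes palmdelphin, fell from 38.7 ± 2.95 to 30.2 ± 2.39 CPM (log2 fold change -0.36, FDR = 0.0223), without overlap. Of the 8 fits that left out 1 library, *Sox17* passed in 2, *Sox18* in 1 and *Palmd* in 4, with FDR values up to 0.0956, 0.127 and 0.0634. *Sox17* also lost its call when raw library totals set the scale (FDR = 0.0626) and *Sox18* with RLE factors (FDR = 0.0505).

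Calls among genes of single vessel types stand beside 14.0% of all genes called, 6.67% as lower and 7.35% as higher. The lists were too small to be set apart from those shares. Among 15 measured capillary genes, *Fabp4*, a fatty acid carrier of muscle capillaries and of fat cells, rose from 187 ± 8.77 to 225 ± 17.0 CPM (log2 fold change 0.27, FDR = 0.0300). *Aplnr*, the apelin receptor, fell from 39.2 ± 16.5 to 13.2 ± 6.75 CPM (log2 fold change -1.58, FDR = 0.0341). With 1 library left out, *Fabp4* passed in 2 of 8 fits and *Aplnr* in 3, with FDR values up to 0.0853 and 0.0982. Scaled by raw library totals, *Fabp4* had a log2 fold change of 0.15 (FDR = 0.138) and lost its call. Of 5 measured adipocyte markers, all had log2 fold changes above 0 (median 1.27), and 0 passed in edgeR, DESeq2 or limma-voom (0 with an unadjusted p under 0.05 in edgeR). They summed to 8.42 to 28.3 CPM in WT libraries and to 9.08, 17.2, 36.6 and 76.1 CPM in KL-/- libraries, and their part in the *Fabp4* result was not tested. The capillary median was 0.10 and the summed level was 1855 to 2053 CPM in WT and 2010 to 2311 CPM in KL-/- libraries. Most of that level came from *Lpl*, *Aqp1* and *Cd36*, none of which passed. Their means were 581, 434 and 418 CPM in WT and 749, 470 and 449 CPM in KL-/- libraries, so the sum mainly follows these genes, *Lpl* most of all. *Vegfc* was the sole call among 14 arterial genes, and the 10 venous and activated genes had 0 calls (1 with an unadjusted p under 0.05, edgeR quasi-likelihood test; 1 call, higher, in DESeq2 and in the likelihood ratio test).

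Of 7 lymphatic genes, *Thy1* fell, with a log2 fold change of -1.51 (FDR = 0.0188) that passed in 4 of the 8 fits without 1 library (FDR up to 0.0586). *Thy1* is also expressed by fibroblasts and leukocytes. The 16 junction partners of the adhesion markers, such as catenins, gave 0 calls in edgeR, DESeq2 or limma-voom (4 with an unadjusted p under 0.05 in edgeR) and a median of -0.08. When raw library totals set the scale they gave 5 calls, all lower, where 2127 of 12551 genes were called lower. In the main fit 14.0% of all genes passed in either direction, and lists of 7 and 16 genes are too small to be set apart from that share.

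**Figure D5:**
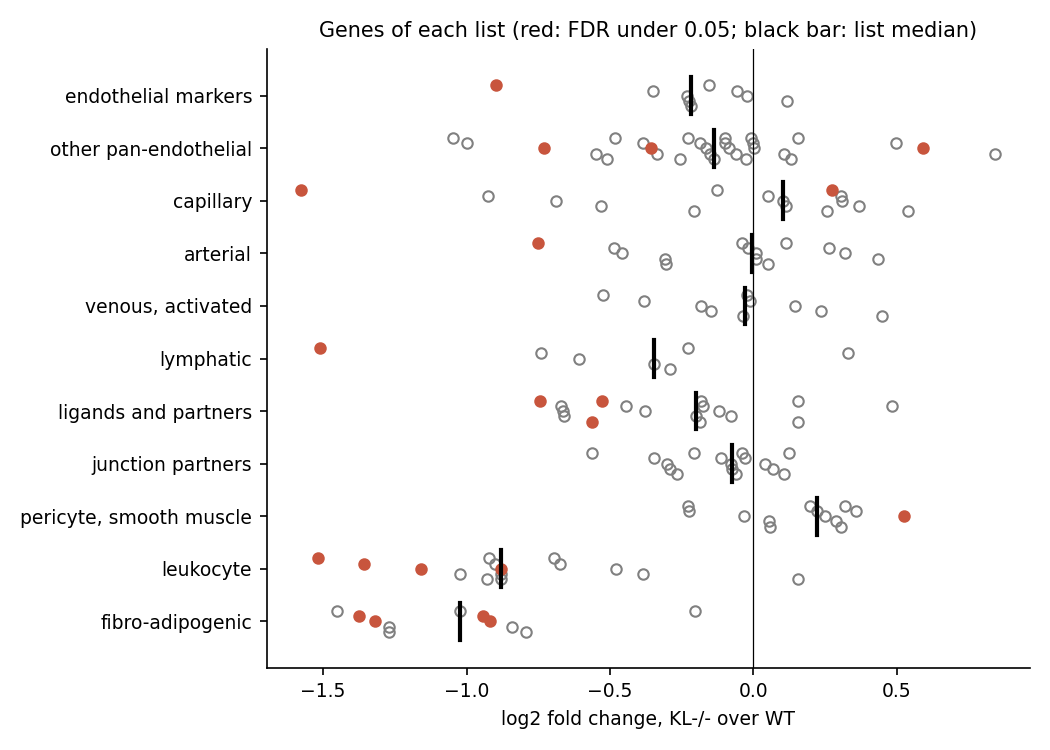
Log2 fold change, KL-/- over WT (x axis), of each measured gene of 11 lists (rows), with filled red points for an FDR under 0.05 and black bars for list medians. The endothelial markers had a median of -0.22, the further pan-endothelial genes -0.14, and the leukocyte and fibro-adipogenic markers -0.88 and -1.02.

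Markers of other cells of the tissue moved as well, and their counts stand beside 6.67% of all genes called lower and 7.35% called higher. Of 15 leukocyte markers, 4 fell and 0 rose, with a summed level of 126 to 248 CPM in WT and 71.0 to 125 CPM in KL-/- libraries and a median log2 fold change of -0.88. *Cd74*, the invariant chain of antigen-presenting cells, had a log2 fold change of -1.36 (FDR = 0.0110). Of 11 fibro-adipogenic and fibroblast markers, 4 fell and 0 rose, with a summed level of 956 to 3800 CPM in WT and 553 to 1706 CPM in KL-/- libraries. Both lists were highest in WT replicate 3, the library in which most endothelial markers were highest. Of 13 pericyte and smooth muscle markers, *Tagln* rose (log2 fold change 0.52, FDR = 0.0394, passing in 1 of the 8 fits without 1 library, FDR up to 0.102, and losing its call under raw library totals, FDR = 0.0798). The sum of the 13 was 3497 to 3613 CPM in WT and 3469 to 4944 CPM in KL-/- libraries. Most of it was *Des*, with means of 2672 CPM in WT and 3426 CPM in KL-/- libraries. The mean sums were 3568 and 4315 CPM, so the difference in the sum lay mainly in *Des*, which did not pass (FDR = 0.0967). Muscle fibre markers summed to 131793 to 148441 CPM in WT and to 149530 to 188285 CPM in KL-/- libraries. Without TMM factors the fibre sums overlapped, at 138680 to 156438 in WT and 146486 to 178882 in KL-/- libraries. Of 6 Schwann cell markers, 3 rose and 0 fell, and 4 lay above WT without overlap, as did 10.2% of all genes. Their sum was 52.7 to 93.8 CPM in WT libraries and 97.9 to 119 CPM in KL-/- libraries, and without TMM factors the sums overlapped, at 55.5 to 97.2 and 95.9 to 114. The part of these lists in the *Kdr* result was not tested. Platelet markers, which matter for *Vwf* and *Pecam1*, were measured for 4 of 9 genes and summed to 5.10 to 12.4 CPM in WT and 3.44 to 8.68 CPM in KL-/- libraries. One of 7 red blood cell markers was measured.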

How the data were processed

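Genotype and replicate number were taken from the sample titles. The authors used STAR to map the reads on mm10, left out alignments of low quality and assigned the rest to genes with featureCounts. What they deposited are raw counts. The methods name mRNA sequencing and the labels total RNA, from 100 ng of RNA per library. Here edgeR 4.0.16 (R 4.3.3) was run on them. No gene of the 12551 was removed by its default filter. Libraries were scaled by TMM, genotype was the sole term, and quasi-likelihood p-values were adjusted by Benjamini-Hochberg over all genes, at an FDR of 0.05. Log2 CPM for profiles had a prior count of 2. Alternatives were DESeq2 1.42.0, limma-voom (limma 3.58.1), the likelihood ratio test, other scaling and filters, the replicate number as a block, and each library left out. The edgeR 3 form of the test was added after the data had been seen. Tests were checked on simulated counts.

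The 9 markers and the other lists were chosen with earlier results of these data known. The rule named all 9 markers, up to 2 genes per direction with the smallest p from each other list, and the 5 genes closest to the mean marker profile. Motif words were searched in RefSeq promoter windows. Floors of 3 counts were 0.105 to 0.143 CPM, far below every marker.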

Additional observations from a re-analysis of the deposited data

Results flagged for a closer look

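In groups of 4 libraries, a value was marked when its gap to the nearest other value was a larger share of the group's range than Dixon's 95% criterion allows. Chance marks about 1 in 20 groups, and 5 of 90 groups were marked, with 4.5 expected. None of the 9 endothelial markers was among them.

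KL-/- replicate 2 gave 4 of the marks. It was the highest KL-/- library for *Nrp2* at 22.1 CPM, against 15.4 to 16.2 CPM in the other 3, and for *Angpt1* at 25.4 CPM, against 12.2 to 14.1 CPM. It was the lowest for *Vegfb* at 107 CPM, against 155 to 156 CPM. Its summed level of venous and activated endothelial genes was 467 CPM, against 334 to 348 CPM. Most of that sum was *Cpe*, at 363 CPM in KL-/- replicate 2, its highest level in any library. The mark therefore mainly follows *Cpe* and does not describe the venous list as a whole. WT replicate 4 had the lowest summed level of muscle fibre markers among WT libraries, 131793 CPM, against 146877 to 148441 CPM.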

How the results depend on the processing

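*Kdr* passed under all 17 alternatives, counting the fit without a filter, which repeated the main fit. When raw library totals set the scale, the median of all genes moved from -0.02 to -0.13, and the share of higher among called genes from 52.4% to 18.8%. Calls rose over the whole table, with 2619 of 12551 genes passing in place of 1759, and 2127 of the 2619 were lower. Under that scaling 3 of the 9 markers passed (*Tie1*, *Kdr* and *Cdh5*), as did 6 further pan-endothelial genes (all lower, *Sox17* being lost) and 10 ligand, co-receptor and junction genes, where the main values were 3 and 3. Summed levels (log2, KL-/- over WT) then moved to 0.0587 for capillary genes, -0.14 for arterial genes and -0.19 for junction partners. DESeq2 gave 2 markers and 8 pan-endothelial genes, and the likelihood ratio test gave 9 pan-endothelial genes. These 2 tests also called more of all genes, 2456 and 2124.

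Deviations of log2 CPM from the genotype mean correlated at -0.146, 0.181, -0.368 and 0.017 between same-numbered libraries. Libraries of unlike number gave values of like size, such as 0.302 for WT replicate 3 with KL-/- replicate 2 and -0.292 for WT replicate 4 with KL-/- replicate 2. The check therefore cannot decide whether the numbers pair the mice. With the replicate number as a block, 671 genes passed in place of 1759, 1 pan-endothelial gene and 1 ligand or junction gene, and *Kdr* kept its call (log2 fold change -0.87, FDR = 0.0322). *Fabp4* (FDR = 0.0799), *Sox17* (0.0645), *Sox18* (0.0698), *Tagln* (0.109), *Aplnr* (0.0734), *Vegfc* (0.0537), *Nrp2* (0.0551) and *Angpt1* (0.0625) did not pass in that fit.

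Leaving out 1 library gave 762 (without KL-/- replicate 3) to 2755 (without KL-/- replicate 2) genes, with 775 to 780 without WT replicate 2, WT replicate 3 or KL-/- replicate 4, 0 to 4 pan-endothelial genes (0 without WT replicate 2 or KL-/- replicate 4, 1 without WT replicate 3 or KL-/- replicate 3) and 1 to 5 ligand or junction genes (5 without KL-/- replicate 2, and 1 without any other library except WT replicate 1). The log2 fold change ranged from -0.142 to 0.0555 for *Pecam1*, -0.101 to 0.0720 for *Esam*, -0.17 to 0.23 for *Eng*, -0.28 to -0.05 for *Vwf*, -0.33 to -0.12 for *Emcn*, -0.28 to -0.12 for *Tek*, 0.06 to 0.25 for *Flt1* and -0.144 to 0.0339 for *Vegfa*, and the ratio difference from -0.0933 to 0.0715 for *Tek* over *Tie1* and -0.156 to 0.0457 for *Vwf* over *Pecam1*. The cause was not tested. With 4 mice per genotype, the lower bounds of the 95% intervals of the 8 uncalled markers lay between -0.62 (*Cdh5*) and -0.30 (*Pecam1*), so falls up to that size lie within the intervals.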
